A study of Homo sapiens with 8 samples.

Results

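The expression of 10 genes of Toll-like receptor signalling was examined in NB4 cells, an acute promyelocytic leukemia (APL) line with the PML/RARα fusion protein, with and without knockdown of the histone demethylase KDM3B and with and without all-trans retinoic acid (ATRA), the drug that drives these cells towards granulocytes. The genes were chosen by symbol: the cell surface receptors TLR1, TLR2, TLR4, TLR5 and TLR6, the endosomal receptors TLR7 and TLR8, the co-receptors CD14 and LY96, and the adaptor MYD88. All 10 were found among the 37526 gene names listed for every library. The files of the untreated libraries listed 56470 names and those of the ATRA libraries 56609.

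The RNA-seq data comprised 8 libraries in 4 groups of 2 replicates. The groups were scramble (called shNC, or empty vector, in the labels), shKDM3B, scramble+ATRA and shKDM3B+ATRA. All groups were stable lentiviral NB4 lines carrying pLVX-shRNA2-puro, and no source used here says which KDM3B hairpin was sequenced. The labels give ATRA at 1 µM for 24 or 48 h without saying which time belongs to which library, whereas the methods give the concentration in mM. The methods mention 2 replicates of the sequencing experiment without saying whether these were separate cultures, so the p-values below measure only the spread between these libraries.

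Toll-like receptors recognise conserved microbial molecules. TLR2, as a dimer with TLR1 or TLR6, binds bacterial lipopeptides. TLR4 binds lipopolysaccharide, which CD14 hands to its partner LY96 (MD-2). TLR5 binds flagellin, and TLR7 and TLR8 bind single-stranded RNA inside endosomes. MYD88 joins all of these receptors to the IRAK kinases and, through TRAF6, to NF-κB and MAP kinases. Monocytes and neutrophils are the blood cells best known for TLR2, TLR4 and CD14, and MYD88 was first described as a gene induced during myeloid differentiation.

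Between 9708739 and 33017787 read pairs, called reads below, were counted on genes per library, with 19444480 or more in each untreated library and at most 16882512 in each ATRA library. Reads outside annotated genes made up 8.49 to 9.62% of all reads counted, ambiguous or outside genes in the 4 untreated libraries and 9.36% in scramble+ATRA replicate 1. That share was 50.0% in scramble+ATRA replicate 2 and 51.4 and 51.0% in the shKDM3B+ATRA libraries. Replicates of each group differed by more than the sampling noise. KDM3B, the targeted gene, was at 187 and 188 CPM (reads on a gene scaled to a common library size) in scramble, 76.3 and 86.2 in shKDM3B, 196 and 121 in scramble+ATRA, and 52.5 and 57.4 in shKDM3B+ATRA. KDM3B was therefore lower in every knockdown library than in every control library, by 2.31-fold without ATRA and 2.89-fold with ATRA, both calls by the unadjusted rule given below for TLR4 (edgeR adjusted p = 0.068 and 0.502). The call with ATRA was lost without either shKDM3B+ATRA library, at log2 fold changes of -1.47 and -1.60. MPO, a promyelocyte enzyme, was at 4284 and 5343 CPM in scramble, 8339 and 9518 in shKDM3B, 730 and 616 in scramble+ATRA, and 3128 and 2220 in shKDM3B+ATRA, while ELANE, PRTN3 and AZU1, granule genes of the same cell stage, did not exceed 1.47 CPM in any library. How ambiguous and multiply mapped reads were counted is not given in the sources used here, and whether the counting had a part in these low values was not tested.

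The 10 genes fell into 2 sets by level. TLR1, TLR4, TLR6 and MYD88 were counted in every library, with 16 to 1235 reads, and passed the filter on low counts. TLR2, TLR5, TLR7, TLR8, CD14 and LY96 had at most 8 reads in any library and were not tested. A count of 0 allows up to 3 reads, which corresponds to 0.0909 to 0.309 CPM depending on the library, and this limit covers counting error only. The shared receptor of lipopeptide sensing, TLR2, was therefore at or below the detection limit while TLR1 and TLR6, its dimer partners, were detected. The TLR4 partners CD14 and LY96 were above 3 reads in some libraries, with at most 8.

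TLR2 gave a single read over all 8 libraries, in scramble+ATRA replicate 1. TLR7 gave 1 read, in shKDM3B replicate 2, and TLR8 gave 1 read in scramble+ATRA replicate 1 and 1 in shKDM3B+ATRA replicate 2. TLR5 was listed with 1 and 4 reads in shKDM3B, 4 in scramble+ATRA replicate 1 and 0 elsewhere. These 4 receptors were not detected above the limit that a count of 0 allows in most libraries, and no direction can be read from them.

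CD14, the lipopolysaccharide co-receptor, had 3 and 7 reads in scramble, 5 and 2 in shKDM3B, 8 and 7 in scramble+ATRA, and 4 and 2 in shKDM3B+ATRA. In CPM it was 0.151 and 0.294 in scramble, 0.257 and 0.0614 in shKDM3B, 0.490 and 0.646 in scramble+ATRA, and 0.421 and 0.201 in shKDM3B+ATRA. LY96 had 6 and 5 reads in scramble, 0 and 4 in shKDM3B, 5 and 8 in scramble+ATRA, and 1 and 3 in shKDM3B+ATRA. In CPM it was 0.301 and 0.210 in scramble, 0 and 0.123 in shKDM3B, 0.306 and 0.738 in scramble+ATRA, and 0.105 and 0.301 in shKDM3B+ATRA. Where groups of either co-receptor did not overlap, they were apart by a few reads only. Neither passed the filter, no group difference was tested, and no direction can be read from these counts.

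Per kilobase of exon, MYD88 was the highest of the 10 genes in every group. Its mean was 7.15 CPM per kb in scramble, 8.0 in shKDM3B, 17.9 in scramble+ATRA and 17.2 in shKDM3B+ATRA. TLR4 was second in scramble, scramble+ATRA and shKDM3B+ATRA, with 1.27, 1.80 and 1.52 CPM per kb. In shKDM3B, TLR6 (1.11 CPM per kb) was above TLR4 (0.574). The means of TLR1 lay between 0.464 and 1.13 CPM per kb, and those of TLR6 between 0.720 and 1.57.

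**Figure D1:**
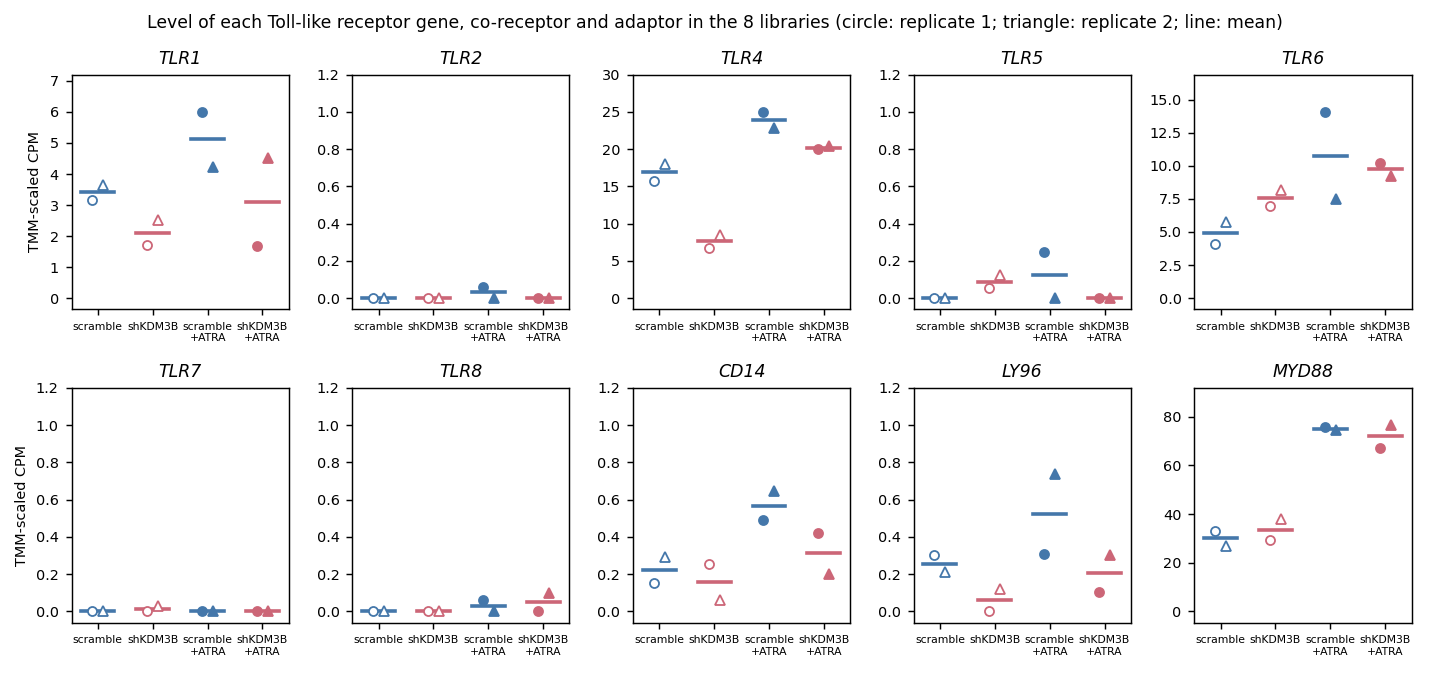
Level of each of the 10 genes by group, in CPM scaled by TMM over the 8 libraries. Circles are replicate 1, triangles replicate 2 and lines the mean. TLR4 was lowest in shKDM3B (6.73 and 8.50 CPM), and MYD88 was at 67.2 CPM or more in every ATRA library against at most 37.8 CPM without ATRA.

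First, the knockdown was compared with scramble in untreated cells. TLR4 was the only one of the 4 tested genes that was called by the unadjusted rule given below: it was 2.21-fold lower in shKDM3B. Its level was 15.8 and 18.0 CPM in scramble (16.9 ± 1.58, SD, n = 2) and 6.73 and 8.50 CPM in shKDM3B (7.61 ± 1.25, SD, n = 2). Both knockdown libraries were below both scramble libraries, by more than the spread between replicates. The log2 fold change in edgeR's quasi-likelihood test was -1.14 ± 0.23 (SE). Calls required an unadjusted P below 0.05 together with a fold change of at least 1.5, and the words rose and fell refer to calls. After Benjamini-Hochberg adjustment over all 13855 genes tested, TLR4 did not pass (edgeR adjusted p = 0.13). By the same rule 3.48% of all genes tested rose and 3.53% fell in this comparison.

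TLR1 and TLR6, the neighbouring receptor genes on chromosome 4, lay on opposite sides of no change. TLR1 was at 3.16 and 3.65 CPM in scramble and 1.70 and 2.52 CPM in shKDM3B, a log2 fold change of -0.68 ± 0.34 (SE, edgeR adjusted p = 0.58). TLR6 was at 4.12 and 5.75 CPM in scramble and 6.99 and 8.19 CPM in shKDM3B, a log2 fold change of 0.62 ± 0.28 (SE, edgeR adjusted p = 0.51). Neither was a call, although the groups did not overlap for either gene. Both became calls with replicate number as a block, as given below. With 2 libraries against 2, groups without overlap reach no less than p = 0.333 in an exact permutation test for either direction. The share of all genes without overlap was not counted. This limit applies wherever groups are said not to overlap. MYD88 was at 33.1 and 26.9 CPM in scramble and 29.3 and 37.8 CPM in shKDM3B, so that the groups overlapped (log2 fold change 0.16 ± 0.21, SE, edgeR adjusted p = 0.863).

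In GENCODE v44 on hg38, TLR1 (chr4:38790677-38856817, minus strand) and TLR6 (chr4:38822897-38856817, minus strand) end at the same base, which is the upstream end of both. Exon bases shared by the pair make up 1.26% of the TLR1 exons and 0.832% of the TLR6 exons. The pair are also close paralogs, and how reads that match both were counted is not given in the sources used here, so the split between them is uncertain to that extent. Since both come from the same library, their ratio does not depend on the scaling. TLR6 contributed 56.6% (95% Wilson interval 48.4 to 64.3) and 61.2% (54.6 to 67.3) of the reads on the pair in the scramble libraries. In shKDM3B the share was 80.5% (73.8 to 85.7) and 76.5% (71.8 to 80.6), above both scramble libraries. With ATRA, scramble gave 70.1% (65.0 to 74.8) and 63.8% (55.1 to 71.6), and shKDM3B gave 85.8% (78.2 to 91.1) and 67.2% (58.9 to 74.5). The ATRA groups overlapped. These intervals cover counting error only, and with 2 libraries against 2 an exact two-sided permutation test cannot go below p = 0.333.

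TLR4 lies at chr9:117704175-117724735 on the plus strand in GENCODE v44 (hg38). In the RefSeq promoter set (GRCh38.p14), 7 of the 10 genes had an entry, and the 250 bases before the start were searched on both strands for 4 sets of letters. These were GAGGAAGT, a form of the site bound by the myeloid factor PU.1, AGGTCA, the core element of retinoic acid response sites, the same element repeated in one direction with 5 bases between (DR5), and GGGACTTTC, a kappa B site bound by NF-κB. Of the 7 genes, TLR4 alone held a match: GAGGAAGT occurred 2 times, on the minus strand, at bases -173 to -166 and -101 to -94 before the start. They are shown because TLR4 is the receptor with the largest fitted change in the knockdown. Each is printed on the plus strand with its flanks, the capitals marking the reverse complement of GAGGAAGT.
TLR4 upstream match, chr9:117704220-117704247: tcttcttctaACTTCCTCtcctgtgaca
TLR4 downstream match, chr9:117704292-117704319: tgccgctttcACTTCCTCtcacccttta
Both lie within exons of 2 GENCODE transcripts that start further upstream. Of all 35116 promoters in the set, 2.17% held GAGGAAGT at least once and 0.0541% at least 2 times. AGGTCA was present in 12.1% of all promoters, DR5 in 0.00285% and GGGACTTTC in 0.325%. These matches describe letters only, and no binding was measured here.

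The knockdown was next compared with scramble in ATRA-treated cells, where none of the 4 tested genes passed the test. TLR4 was at 25.0 and 22.8 CPM in scramble+ATRA and 20.0 and 20.4 CPM in shKDM3B+ATRA. Both knockdown libraries were again below both controls, but the log2 fold change was -0.24 ± 0.19 (SE, edgeR adjusted p = 0.709). For MYD88 the 2 groups overlapped, at 75.7 and 74.4 CPM against 67.2 and 76.6 CPM (log2 fold change -0.058 ± 0.13, SE, edgeR adjusted p = 0.898). The ranges of TLR1 (6.01 and 4.24 against 1.69 and 4.52 CPM) and of TLR6 (14.1 and 7.47 against 10.2 and 9.24 CPM) overlapped as well. Their log2 fold changes were -0.72 ± 0.62 (SE, edgeR adjusted p = 0.736) and -0.15 ± 0.41 (SE, edgeR adjusted p = 0.922). Over all genes 2.42% rose and 4.37% fell by the same rule in this comparison, and none of the 14281 genes tested passed after adjustment in edgeR, where 1383 had an unadjusted P below 0.05.

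The values of TLR6 and TLR1 moved with the library left out. TLR6 in scramble+ATRA was 14.1 CPM in replicate 1, with 9.36% of reads outside genes, and 7.47 CPM in replicate 2, with 50.0%. Without replicate 1, which left the library that matched shKDM3B+ATRA in that share, the log2 fold change of TLR6 was 0.39. Without replicate 2 it was -0.54. In each such fit the lone library was assumed to vary like the other group. For TLR1 the log2 fold change was -0.43 without replicate 1 and -0.95 without replicate 2, and only the last was a call. It was -0.18 without shKDM3B+ATRA replicate 1 and -1.60 without shKDM3B+ATRA replicate 2. TLR4 stayed between -0.31 and -0.16 under the same alternatives. The part of the reads outside genes in these values was not tested.

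Then, the response to ATRA was measured in each line. In scramble cells, MYD88 rose 2.56-fold and TLR6 rose 2.24-fold. MYD88 increased from 33.1 and 26.9 CPM (30.0 ± 4.41, SD, n = 2) to 75.7 and 74.4 CPM (75.1 ± 0.899, SD, n = 2), a log2 fold change of 1.36 ± 0.22 (SE, edgeR adjusted p = 0.00847). TLR6 increased from 4.12 and 5.75 CPM to 14.1 and 7.47 CPM, a log2 fold change of 1.16 ± 0.41 (SE, edgeR adjusted p = 0.121). Without scramble+ATRA replicate 1 the change of TLR6 was 0.64 and no longer a call, and the call was also lost without either scramble library. TLR4 was at 25.0 and 22.8 CPM after ATRA, above both scramble libraries, but at a log2 fold change of 0.54 ± 0.24 (SE, edgeR adjusted p = 0.198) it did not pass. TLR1 did not pass either (0.62 ± 0.38, SE, edgeR adjusted p = 0.35). Of all 12429 genes tested, 15.0% rose and 10.8% fell.

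In shKDM3B cells, TLR4 rose 2.74-fold and MYD88 rose 2.22-fold with ATRA. TLR4 increased from 6.73 and 8.50 CPM to 20.0 and 20.4 CPM (20.2 ± 0.273, SD, n = 2), a log2 fold change of 1.45 ± 0.21 (SE, edgeR adjusted p = 3.59e-04). MYD88 increased from 29.3 and 37.8 CPM to 67.2 and 76.6 CPM, with a log2 fold change of 1.15 ± 0.17 (SE, edgeR adjusted p = 3.99e-04). Both ATRA libraries lay above both untreated libraries for either gene. TLR6 was at 10.2 and 9.24 CPM after ATRA, also above the untreated range, with a log2 fold change of 0.41 ± 0.23 (SE, edgeR adjusted p = 0.177). TLR1 ranged from 1.69 to 4.52 CPM within the shKDM3B+ATRA pair, wider than its range without ATRA (log2 fold change 0.60 ± 0.46, SE, edgeR adjusted p = 0.306). In this comparison 24.0% of the 12756 genes tested rose and 18.3% fell.

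Every ATRA library was counted on a different list of gene names from the untreated libraries. ATRA and the list therefore cannot be told apart in either line. Both shKDM3B+ATRA libraries also had over 50% of reads outside genes against at most 9.62% in untreated shKDM3B. Within that line, ATRA and this share cannot be told apart either. A term for this split was added to a fit over all 8 libraries, chosen after seeing the data. Within a group the split differed only between scramble+ATRA replicates 1 and 2, so the term rests on 1 library against 1. It cannot separate ATRA from the share in shKDM3B. With it, the log2 fold change in shKDM3B was 1.53 for TLR4 (edgeR adjusted p = 0.024) and 1.12 for MYD88 (edgeR adjusted p = 0.0587), both calls at the unadjusted threshold. In scramble cells, scramble+ATRA replicate 1 shared the low share of the untreated libraries, but not their list of names. With it as the only treated library, MYD88 changed by 1.35 and TLR6 by 1.52 on the log2 scale. That fit holds no spread among treated libraries.

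**Figure D2:**
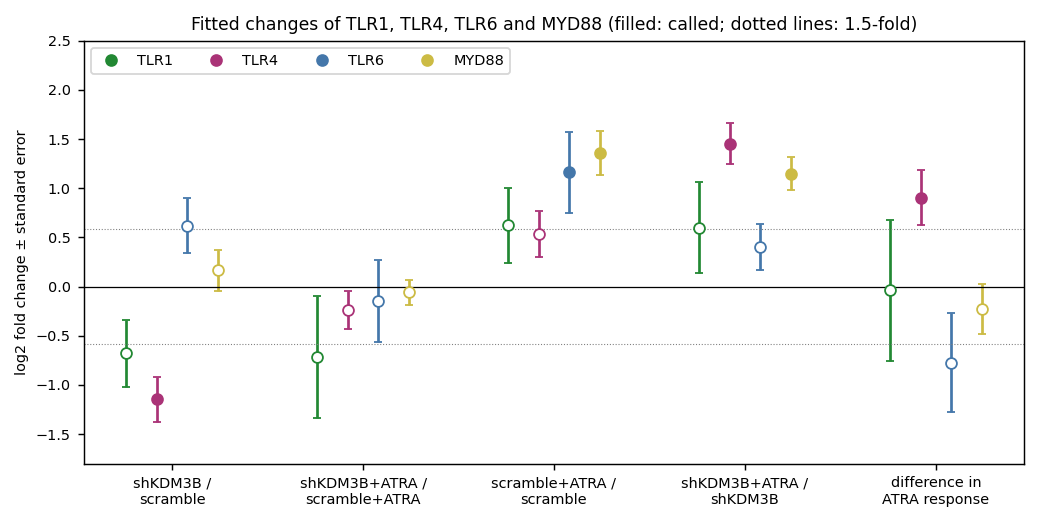
Log2 fold changes of TLR1, TLR4, TLR6 and MYD88 in the 4 pairwise comparisons and the difference in ATRA response, with standard errors from edgeR's quasi-likelihood fits. TLR4 fell with knockdown in untreated cells (-1.14) and rose with ATRA in shKDM3B (1.45), and MYD88 rose with ATRA in scramble (1.36) and in shKDM3B (1.15).

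The responses of the 2 lines were compared directly by an interaction term over all 8 libraries. The ATRA response of TLR4 was larger in shKDM3B than in scramble by 0.90 ± 0.28 on the log2 scale (SE), a 1.87-fold difference that was a call at the unadjusted threshold but not after adjustment (edgeR adjusted p = 1.00). None of the 13528 genes tested passed after adjustment, while 607 had an unadjusted P below 0.05. The groups of TLR4 were ordered shKDM3B, scramble, shKDM3B+ATRA and scramble+ATRA, from 6.73 to 25.0 CPM, and no neighbouring groups overlapped, although the 2 ATRA groups did not differ by the test. The shKDM3B+ATRA mean was 20.2 CPM against 23.9 CPM (± 1.58, SD, n = 2) in scramble+ATRA, whereas the untreated means were 7.61 and 16.9 CPM. For the other 3 genes the difference did not pass: TLR6 -0.77 ± 0.50, MYD88 -0.23 ± 0.26 and TLR1 -0.037 ± 0.71 (SE, edgeR adjusted p = 1.00 for each). Over all genes the difference was called upward in 1.27% and downward in 2.72%.

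The interaction of TLR4 ranged from 0.75 to 1.14 when single libraries were left out. It lost the call without scramble replicate 2 (0.80). With reads outside genes as a term, which rests on the scramble+ATRA pair alone, it was 0.97 (edgeR adjusted p = 0.635). Without scramble+ATRA replicate 2 it was 0.83. Both were still calls at the unadjusted threshold.

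**Figure D3:**
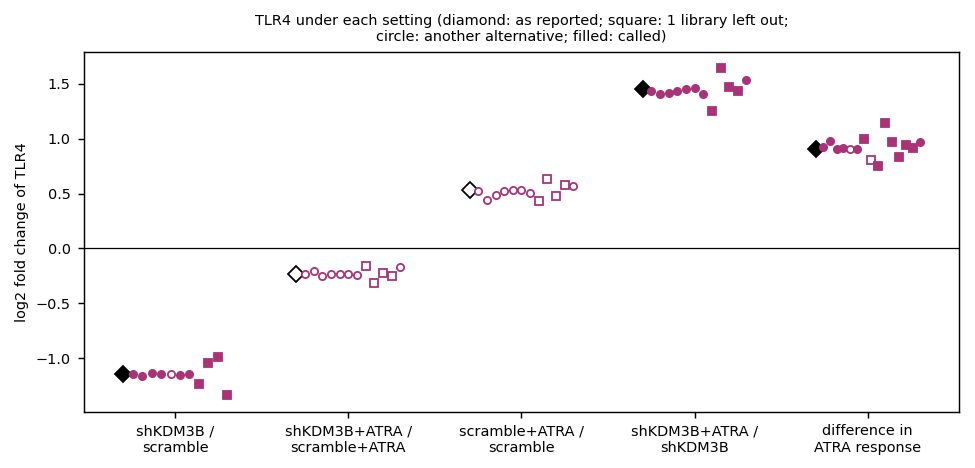
Log2 fold change of TLR4 in each comparison as reported (diamonds) and under every other setting, including each library left out in turn (squares). The untreated knockdown effect stayed between -1.34 and -0.99, and the ATRA response of shKDM3B between 1.26 and 1.64.

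Among 9788 genes with a mean of at least 5 CPM, the 3 whose pattern was most like that of TLR4 over the 8 libraries were NOD1, an intracellular sensor of bacterial peptidoglycan, with a Pearson r of 0.977 on the log2 scale, PARP2, a DNA repair enzyme (0.974), and SCAMP5, a membrane trafficking protein (0.974). NOD1 was at 19.5 and 20.5 CPM in scramble, 13.9 and 15.7 in shKDM3B, 23.5 and 25.6 in scramble+ATRA, and 23.4 and 23.5 in shKDM3B+ATRA. SCAMP5 was at 18.4 and 24.0 CPM in scramble, 7.60 and 11.3 in shKDM3B, 26.7 and 24.9 in scramble+ATRA, and 20.8 and 19.8 in shKDM3B+ATRA. PARP2 had the narrowest range, from 41.0 to 53.4 CPM. These correlations describe 8 libraries that share 4 conditions, depths and counting, and carry no test.

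Markers of other blood cells were measured beside these genes. In bulk RNA, fewer cells of a type and less RNA per cell cannot be told apart. The summed level of 6 promyelocyte genes (MPO, ELANE, PRTN3, AZU1, CTSG and CD33), of which MPO made up most, was 4452 to 5534 CPM in scramble, 8554 to 9723 in shKDM3B, 707 to 844 in scramble+ATRA and 2323 to 3224 in shKDM3B+ATRA. MPO was higher with knockdown without overlap in both conditions. CTSG was at 105 and 115 CPM in scramble and 149 and 127 in shKDM3B but at 4.11 and 2.31 in scramble+ATRA and 2.0 and 1.71 in shKDM3B+ATRA, lower with knockdown in the latter pair. CD33 overlapped between the lines in both conditions (63.0 and 74.5 against 64.7 and 77.5 CPM, and 110 and 88.0 against 91.4 and 99.8 CPM with ATRA). The summed level of 7 granulocytic differentiation genes (ITGAM, ITGAX, NCF1, CYBB, CSF3R, FPR1 and LTF) was 429 to 448 CPM in scramble, 252 to 265 in shKDM3B, 3261 to 3535 in scramble+ATRA and 1493 to 1822 in shKDM3B+ATRA. CYBB was the largest part of this sum in every library. The 4 groups stood in the same order for the sum as for TLR4, and likewise for ITGAM, NCF1, CYBB and CSF3R. ITGAX overlapped between the untreated lines (5.72 and 10.9 CPM in scramble, 4.06 and 8.47 in shKDM3B). FPR1 was at 0 and 0.301 CPM in shKDM3B+ATRA against 0.251 and 0.294 in scramble. LTF did not exceed 0.201 CPM. The sum of 7 monocyte and macrophage genes (CSF1R, CD163, CCR2, MRC1, VCAN, CD68 and MARCO) was 5.42 to 6.08 CPM in scramble, 3.65 to 5.06 in shKDM3B, 5.81 to 10.4 in scramble+ATRA and 4.21 to 4.82 in shKDM3B+ATRA. Of these genes, CSF1R made up most of the sum in every library. CCR2 went the other way in untreated cells, at 0.351 and 0.713 CPM in scramble and 1.44 and 1.47 in shKDM3B. CD163 was at 0 in all 8 libraries, MRC1 was at 0 in 6 and CD68 was at 0 in 5. These sums cover the named genes only, and the part of any marker group in the levels of TLR4 and MYD88 was not tested. The erythroid genes HBB and HBA1 and the B cell gene MS4A1 were at 0 in every library. CD79A, another B cell gene, was at 3.06 to 3.21 CPM in scramble, 1.28 to 2.33 in shKDM3B, 16.1 to 16.4 in scramble+ATRA and 6.95 to 8.24 in shKDM3B+ATRA. The T and NK cell genes NKG7, CD3D and CD3E together were at 34.8 to 46.9 CPM in scramble and 19.9 to 24.5 in shKDM3B, and at 34.1 to 50.2 in scramble+ATRA and 15.0 to 23.3 in shKDM3B+ATRA, lower with knockdown without overlap in both conditions. CD3D and CD3E did not exceed 1.13 CPM each, so that NKG7 made up most of this sum.

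A list of 48 further genes of the pathway was then examined by role. In untreated cells, 38 were tested, and 3 rose and 3 fell with knockdown, none after adjustment in edgeR (the lowest adjusted p was 0.068, of CD36). This was 15.8% of the tested list, against 3.48% rising and 3.53% falling over all genes. The median log2 fold change of the list was 0.023, against 2.19e-04 over all genes. CD36, a scavenger receptor that cooperates with TLR2 and TLR6, was 14.1 and 5.92 CPM in scramble and 0.617 and 0.706 CPM in shKDM3B, a fall of 14.9-fold. Its log2 fold change of -3.89 was -3.14 without scramble replicate 1 and -4.39 without scramble replicate 2, a call in both cases. Also lower were SARM1, an adaptor-related NAD hydrolase (2.93-fold), and IL1B, a cytokine target (1.96-fold). These calls were kept in 6 of 11 alternatives for SARM1 and 4 of 11 for IL1B, and the latter was lost without any one of the 4 libraries (-1.19 to -0.83). For SARM1 the call was lost without scramble replicate 1 (-1.03) or shKDM3B replicate 2 (-1.51). SARM1 shares 41.3% of its exon bases with genes on the opposite strand, and the strand setting of the counting is not given in the sources used here.

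Among the 5 inhibitors, IRAK3 and TNFAIP3 rose and the others did not pass the test. IRAK3, a brake on MYD88 signalling, was 92.8 and 108 CPM in scramble and 214 and 177 CPM in shKDM3B, a rise of 1.94-fold. TNFAIP3 (A20), an ubiquitin-editing inhibitor of NF-κB, rose 1.53-fold, a call in 6 of 11 alternatives that was lost without scramble replicate 2 or either shKDM3B library (0.56 to 0.61 on the log2 scale). The neutrophil chemokine CXCL8, a target of the pathway, rose 2.88-fold, from 11.9 and 8.64 CPM to 27.1 and 31.9 CPM. None of the 16 kinases and ubiquitin ligases and none of the 5 transcription factors passed the test in either direction.

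With ATRA, 37 of the 48 genes were tested against scramble+ATRA. IRAK3 was again higher with knockdown, at 142 and 126 CPM against 69.4 and 63.1 CPM (2.03-fold, edgeR adjusted p = 0.502). CD36 was again lower, at 5.58 and 4.22 CPM against 21.3 and 28.9 CPM (5.09-fold, edgeR adjusted p = 0.502). No other gene of the list was called. The 2 calls were 5.41% of the tested list, against 2.42% rising and 4.37% falling over all genes, and the list median was -0.14 against 0.034 over all genes. Knockdown libraries lay on the same side of the controls with and without ATRA for both genes.

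With ATRA in scramble cells, 39 genes were tested, of which 10 rose and 3 fell, 6 of them also after adjustment. The 13 calls were 33.3% of the tested list, while 15.0% of all genes rose and 10.8% fell. The targets CXCL8 and IL1B rose 13.5-fold and 8.23-fold (edgeR adjusted p = 0.00276 and 0.00272). IL1B increased from 1.86 and 1.64 CPM to 11.6 and 16.5 CPM. CXCL8 increased from 11.9 and 8.64 CPM to 77.8 and 192 CPM. TNF and CCL4, other targets, were at 0 in all 8 libraries, and IL6 and CCL3 did not exceed 0.0613 CPM.

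Among proteins upstream of the targets, TIRAP, the adaptor that brings MYD88 to TLR4, rose 2.91-fold in scramble with ATRA (5.07 and 4.53 to 14.2 and 13.1 CPM, edgeR adjusted p = 0.0191). The kinases IRAK2 and IRAK4 rose 4.15-fold and 1.81-fold (edgeR adjusted p = 0.0232 and 0.0453). CD180, a TLR4-like regulator, rose 9.42-fold but from 4 and 3 reads to 22 and 19. The inhibitor SIGIRR (2.81-fold) and CD36 (2.57-fold) rose without passing the adjustment. TRAF3 and the inhibitor TNFAIP3 fell 1.80-fold and 2.16-fold, as did 1 target, NFKBIA (1.64-fold). Without scramble replicate 1 the calls of SIGIRR (1.01 on the log2 scale), NFKBIA (-0.42) and TNFAIP3 (-1.07) were lost. Without scramble replicate 2 those of CD36 (0.86), IRAK4 (0.77), TRAF3 (-0.78) and TNFAIP3 (-1.17) were lost. CD36 was 2.11 without scramble replicate 1, SIGIRR 2.19 without scramble replicate 2 and CXCL8 2.94 without scramble+ATRA replicate 2, all still calls. The median of the list was 0.41 on the log2 scale against 0.016 over all genes.

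In shKDM3B cells ATRA raised 9 and lowered 4 of 37 tested genes, and 12 of these passed the adjustment in edgeR. The 13 calls were 35.1% of the tested list, while 24.0% of all genes rose and 18.3% fell. IRAK4 rose 2.40-fold, TIRAP 3.12-fold and CD36 7.55-fold. TLR3, the endosomal receptor of double-stranded RNA, rose 4.31-fold, from 0.925 and 0.675 CPM to 2.95 and 3.62 CPM. TNFAIP3 fell 3.27-fold, TRAF3 fell 2.18-fold, and IKBKE and NFKBIA fell 1.64-fold and 1.61-fold. TBK1, a kinase of the interferon branch, rose 1.62-fold. IL1B rose 4.44-fold, from 0.771 and 0.982 CPM to 1.69 and 5.93 CPM (edgeR adjusted p = 0.00925). Its log2 fold change of 2.15 was 2.79 without shKDM3B+ATRA replicate 1 and 0.97, not a call, without shKDM3B+ATRA replicate 2. The calls were lost without shKDM3B replicate 2 for IKBKE (-0.57), NFKBIA (-0.55) and TBK1 (0.48), and for IKBKE also without shKDM3B+ATRA replicate 1 (-0.56). With the reads outside genes as a term in a fit over all 8 libraries, chosen after seeing the data, the calls of TRAF3 (-0.57, edgeR adjusted p = 0.217), IKBKE (-0.56, 0.306), TBK1 (0.75, 0.287), TLR3 (1.87, 0.225) and IL1B (1.59, 0.277) were lost. IRAK4, TIRAP, CD36, TNFAIP3 and NFKBIA were still calls, TNFAIP3 at -1.09. This term rests on the scramble+ATRA pair alone, so neither lost nor kept calls separate ATRA from the share in shKDM3B. The median of the list was 0.19 against 0.045 over all genes.

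IKBKG (NEMO), the regulatory subunit of the IκB kinase, rose 2.80-fold in shKDM3B with ATRA. It was at 10.5 to 14.6 CPM in the 5 libraries with a low share and at 28.1 to 32.1 CPM in the 3 with 50.0% or more of reads outside genes. In shKDM3B this share and ATRA cannot be told apart. With that share as a term, chosen after seeing the data, its change was 0.49 on the log2 scale and not a call (edgeR adjusted p = 0.397), and the part of the share in the level was not tested.

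**Figure D4:**
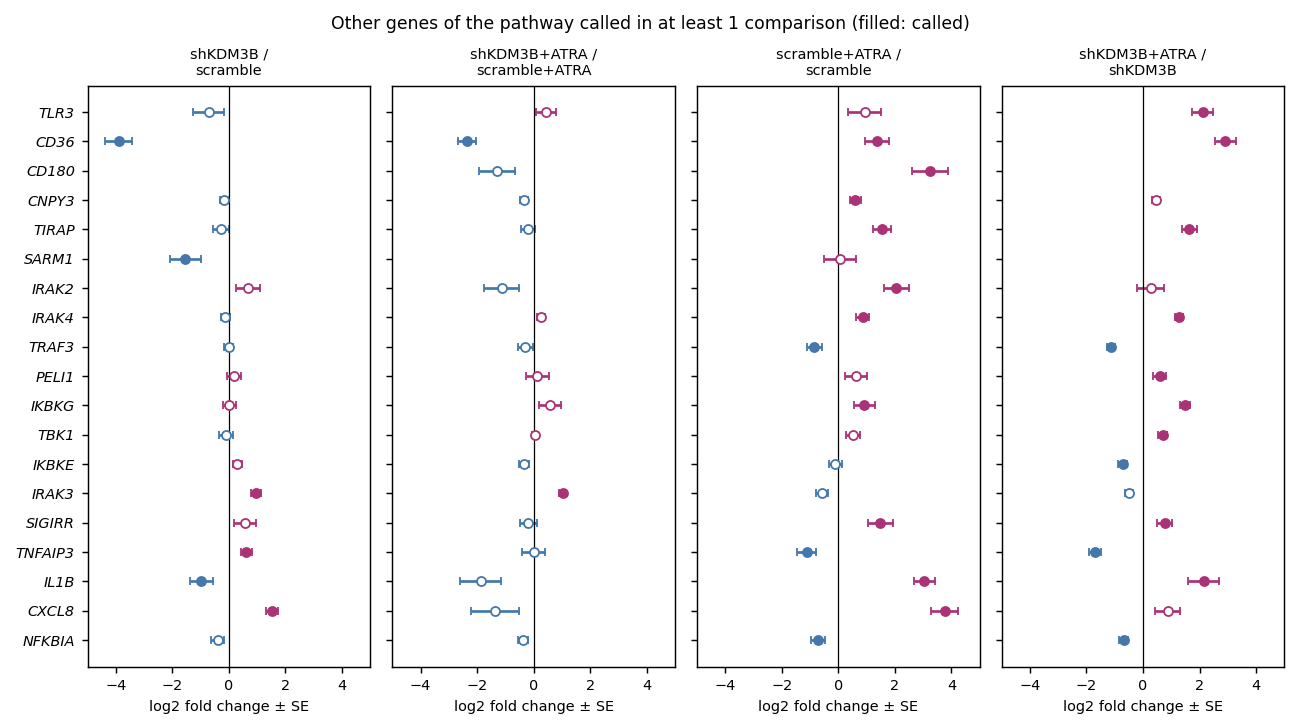
Log2 fold changes of the genes of the 48-gene pathway list that were called in at least 1 pairwise comparison, by comparison, from edgeR's fits. CD36 was lower and IRAK3 higher with knockdown both without ATRA (-3.89 and 0.96) and with ATRA (-2.35 and 1.02).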

How the data were processed

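Total RNA of NB4 cells was sequenced in read pairs by the authors in 8 libraries, 2 in each of 4 groups taken from the labels. The study's methods and processing notes name Trim Galore, HISAT2 on hg38, Picard, SAMtools, HTSeq and DESeq2, without versions, and a RefSeq annotation, although the gene names are in the style of GENCODE. The deposited files hold whole-number counts per gene, without normalization, and 5 HTSeq summary lines, which were left out of library sizes and tests. Strand and multiple-mapping settings are not given in the sources used here.

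Each pair of groups was fitted separately in edgeR 4.0.16 (R 4.3.3) on the deposited counts with filterByExpr, TMM factors and the quasi-likelihood F test. Genes were called at unadjusted P below 0.05 and 1.5-fold, and Benjamini-Hochberg values cover all genes of a fit. The SE is the log2 fold change divided by the square root of F. Comparisons across ATRA used the 37526 shared names. CPM values were scaled by TMM over the 8 libraries, so that a ratio of CPM can differ slightly from a fitted fold. Values per kb used GENCODE v44 union exon lengths. Alternatives included DESeq2 1.42.0, other scaling, no filter, a replicate block and each library left out. Intervals, figures and motif counts used Python 3.11.15, pandas 2.3.3, numpy 2.4.6, scipy 1.17.1 and matplotlib 3.10.9.

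The 10 genes, the 48-gene list, the markers and the motifs were chosen with earlier results of these data known. Named from the list were the genes called in each pairwise comparison, up to 10 by P, and the 3 genes most like TLR4. NFKBIA in scramble with ATRA and IL1B in shKDM3B with ATRA ranked below that limit and were named after their values were seen. Some markers of the lists are not reported here, and the marker sums were taken without them.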

Additional observations from a re-analysis of the deposited data

Results flagged for a closer look

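The ATRA response of TLR4 was larger in shKDM3B than in scramble by 0.90 on the log2 scale in edgeR's interaction test over 8 libraries. CD36 likewise responded more in shKDM3B, by 1.54. It rose from 0.617 and 0.706 to 5.58 and 4.22 CPM in shKDM3B and from 14.1 and 5.92 to 21.3 and 28.9 CPM in scramble. The difference of CD36 was called in 6 of 15 alternatives and ranged from 0.79 (without scramble replicate 1) to 2.04.

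The response was smaller in shKDM3B for 4 genes of the pathway list. The differences were -2.90 for CXCL8, -1.82 for the kinase IRAK2, -0.74 for UNC93B1, the chaperone of endosomal receptors, and -0.63 for the kinase IKBKE. CXCL8 was at 27.1 and 31.9 CPM without ATRA and 21.7 and 82.2 CPM with ATRA in shKDM3B, so that 1 of its ATRA libraries lay below the untreated range. IRAK2 was at 1.85 and 1.35 CPM without ATRA and 0.948 and 2.71 CPM with ATRA in shKDM3B. UNC93B1, which was named here after its values were seen, was at 53.5 and 46.4 CPM in scramble, 72.1 and 71.1 in scramble+ATRA, 60.1 and 55.0 in shKDM3B and 44.2 and 54.2 in shKDM3B+ATRA. IKBKE was at 68.9 and 82.8, 74.0 and 64.1, 84.6 and 102, and 48.6 and 60.9 CPM in the same order. Of the 40 listed genes tested, these were 1 upward and 4 downward calls, none after adjustment (edgeR adjusted p = 1.00 for each), and 540 of 13528 genes were called over all. IRAK2 was called in 6 of 15 alternatives (-2.73 to -1.22), IKBKE in 7 (-0.78 to -0.43), and CXCL8 (-4.13 to -2.11) and UNC93B1 (-0.87 to -0.57) in 13 each. The call of CXCL8 was lost without scramble replicate 2, and that of UNC93B1 without shKDM3B+ATRA replicate 1. IRAK2 was -1.22 without shKDM3B+ATRA replicate 1 and -2.73 without shKDM3B+ATRA replicate 2, and its call was also lost without any one of the 4 untreated libraries.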

How the results depend on the processing

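The call of TLR4 in untreated knockdown and its interaction were lost at an adjusted p below 0.05, and the interaction also without scramble replicate 2 (0.80). The former kept its call otherwise, and its ATRA response in shKDM3B was called under every alternative. The rise of MYD88 with ATRA was called under every alternative in both lines. With an adjusted p below 0.05, the called genes among the 10 numbered 0 in untreated knockdown, 1 in scramble with ATRA and 0 for the difference in response. On the 48-gene list they numbered 0 with knockdown in untreated and in ATRA-treated cells, 6 in scramble with ATRA and 0 for the difference, and over all genes they were 3, 0, 1604 and 0. Without the low-count filter 2 of the 10 genes were called in untreated knockdown, TLR6 being added, and 941 of all genes for the difference in response. With 1 fit over all 8 libraries, 3 listed genes were called in untreated knockdown. Library size alone gave 3 listed genes for the difference. With reads outside genes as a term, 5 listed genes were called for knockdown with ATRA, 7 for ATRA in shKDM3B and 3 for the difference, and over all genes 1637 for knockdown with ATRA and 2984 for ATRA in shKDM3B. That term, which rests on the scramble+ATRA pair alone, also made TLR6 a call in shKDM3B with ATRA (1.27, edgeR adjusted p = 0.121). It turned TLR6 for knockdown with ATRA to 0.38, TLR1 for the difference to 0.23, KDM3B to 0.066 and 0.13 for ATRA in scramble and shKDM3B and to 0.063 for the difference, and PELI1 for ATRA in shKDM3B to -0.35. Library size alone turned TLR1 for the difference to 0.032. These reversals were of values that were not calls as reported, except PELI1. KDM3B for ATRA in shKDM3B had been -0.51 (edgeR adjusted p = 0.0124), at 1.43-fold short of a call only by the fold threshold. The cause of these changes was not tested.

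Leaving out single libraries, with a lone sample assumed to vary like the other group, gave these ranges of called genes. Among the 10 genes they were 1 to 2 for untreated knockdown, 0 to 1 for knockdown with ATRA, 1 to 2 for ATRA in scramble, 2 to 3 for ATRA in shKDM3B and 0 to 2 for the difference. On the list they were 3 to 8, 2 to 7, 8 to 15, 11 to 16 and 1 to 8. Over all genes they were 901 to 1595, 138 to 5195, 1888 to 4647, 5077 to 5909 and 271 to 2381. The sign turned in 8 cases. For MYD88 these changes ran from -0.047 to 0.33 for untreated knockdown (negative without shKDM3B replicate 2), from -0.15 to 0.032 for knockdown with ATRA (positive without shKDM3B+ATRA replicate 1) and from -0.39 to 0.028 for the difference (positive without shKDM3B replicate 2). TLR6 ran from -0.54 to 0.39 for knockdown with ATRA (positive without scramble+ATRA replicate 1). TLR1 ran from -0.29 to 1.14 for ATRA in shKDM3B (negative without shKDM3B+ATRA replicate 2) and from -0.89 to 0.53 for the difference (positive without scramble replicate 1, shKDM3B replicate 2 or either replicate 1 of the ATRA groups). KDM3B ran from -0.58 to 0.079 for ATRA in scramble (positive without scramble+ATRA replicate 2) and from -0.63 to 0.063 for the difference (positive without scramble+ATRA replicate 1). None of these was a call as reported.

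Replicates shared only a number, with correlations of same-numbered deviations of 0.385, 0.0173, -0.0939 and 0.159 for the 4 comparisons. With the replicate block, 3 of the 10 genes were called in untreated knockdown, TLR1 (-0.70) and TLR6 (0.63) being added to TLR4 (adjusted p = 3.21e-04). The block gave 4 listed genes for knockdown with ATRA and 3 for the difference, and 525 of all genes for knockdown with ATRA. TLR2, TLR5, TLR7, TLR8, CD14 and LY96 had at most 8 reads in a library, and the part of depth in this was not tested.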
